A study of Sus scrofa with 74 samples.

Results

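The lysosomal cathepsins were described in the M. longissimus dorsi, a long back muscle, of 74 F2 pigs from a cross of the breeds Duroc and Pietrain, each animal measured on 1 porcine expression array from Affymetrix. The set held 10 genes, CTSA, CTSB, CTSC, CTSD, CTSF, CTSH, CTSK, CTSL, CTSS and CTSZ, and a probe set was a member where the array's annotation assigned it to 1 of these genes alone. A total of 12 of the 23999 probe sets that were not controls met this, and they stood for 7 of the 10 genes, out of 6765 genes with a probe set of their own on the array. CTSC had 4 probe sets, CTSS had 3, and CTSB, CTSD, CTSH, CTSK and CTSZ had 1 each. CTSF was listed only on a probe set shared with another gene, and no probe set carried CTSA or CTSL, so these 3 genes were not analysed here. All 12 probe sets were among the brighter 50% of the array, the 12000 probe sets kept for the tests.

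The animals carried no treatment, all were F2 progeny, and the labels give a mean end weight of 110 kg with muscle taken at slaughter. The labels give neither age, sex nor family. The study drew the animals from full-sib families, so siblings were counted as independent in every test. The labels number the animals in a pair of blocks, DRIP 1-33 with 24 animals and DRIP 60-114 with 50 animals, and do not say what the numbers stand for. The comparison between animals within these blocks asked which cathepsins varied with the genes of leukocytes and of the extracellular matrix in this muscle.

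Cathepsins are proteases that cut proteins taken up by, or delivered to, the lysosome. Most are cysteine proteases, which cystatins hold in check, while CTSD is an aspartic protease. They are made as precursors that are trimmed in the acid compartment. In muscle they are present in the fibres and, at higher levels, in macrophages and other cells between the fibres, and they have long been studied in meat for their part in the breakdown of muscle proteins after slaughter. Their roles as named here are known mainly from human and mouse.

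The muscle markers were bright in all animals. Over 7 genes of skeletal muscle, the mean log2 level ran from 14.43 to 14.93 in DRIP 1-33 and from 14.05 to 15.09 in DRIP 60-114. The arrays differed in overall level before scaling, with a trimmed mean of 87.1 ± 14.9 in DRIP 1-33 and 130.4 ± 20.2 in DRIP 60-114 (SD, n = 24 and 50), so each array was scaled to the same trimmed mean and taken to log2. All levels below are log2 of these scaled intensities. A level of 1 probe set cannot be set against that of another, and in whole muscle fewer cells of a type and less RNA per cell cannot be told apart.

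A total of 3 animals stood farthest apart and bear on the values that follow. Measured as the root mean square deviation from the block mean over the 12000 kept probe sets, DRIP 23 lay farthest out at 0.857 log2 units, against a median of 0.44 over all animals, DRIP 26 was the second at 0.728, and DRIP 114 was the third at 0.685. These arrays were also extreme in overall level before scaling. DRIP 23 had the lowest trimmed mean of all arrays, 50.3, and DRIP 114 the highest, 183.2. DRIP 26 had the highest of DRIP 1-33, 122.9. The part of array level in the distance of these animals was not tested. DRIP 26 had a leukocyte score, as defined below, of 2.18 SD and a matrix score of 1.64 SD. DRIP 114 carried transcripts that are typical of bone marrow, blood and bone. PRTN3 and ELANE, serine proteases of neutrophil granules, stood at 12.80 and 11.76 in DRIP 114. The highest levels among the 72 animals other than DRIP 114 and DRIP 14 were 6.66 for PRTN3 and 6.53 for ELANE. S100A9, a calcium-binding protein of neutrophils, reached 14.62 in DRIP 114, with 8.40 as the highest in the 72, and AHSP, the chaperone of alpha haemoglobin in red cell precursors, reached 12.60 with 7.92 as the highest in the 72. The bone matrix genes BGLAP (osteocalcin) and IBSP (bone sialoprotein) stood at 12.69 and 12.61 in DRIP 114 and were also raised in DRIP 14, at 9.96 and 11.08, while no other animal passed 7.44 for BGLAP or 7.24 for IBSP. ACP5, the acid phosphatase by which osteoclasts are stained, stood at 11.84 in DRIP 114, at 9.20 in DRIP 14 and at 9.50 in the highest of the 72. These genes were picked after their values were seen, and they are given without a test. In the fits on the block, the leukocyte score and the matrix score, results that rest on DRIP 114, DRIP 23 or DRIP 26 are given with and without them. Apart from that of the lysosomal enzymes, the scores of further lists were fitted with all animals only. The search for the genes most like each cathepsin also used all animals only.

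**Figure D1:**
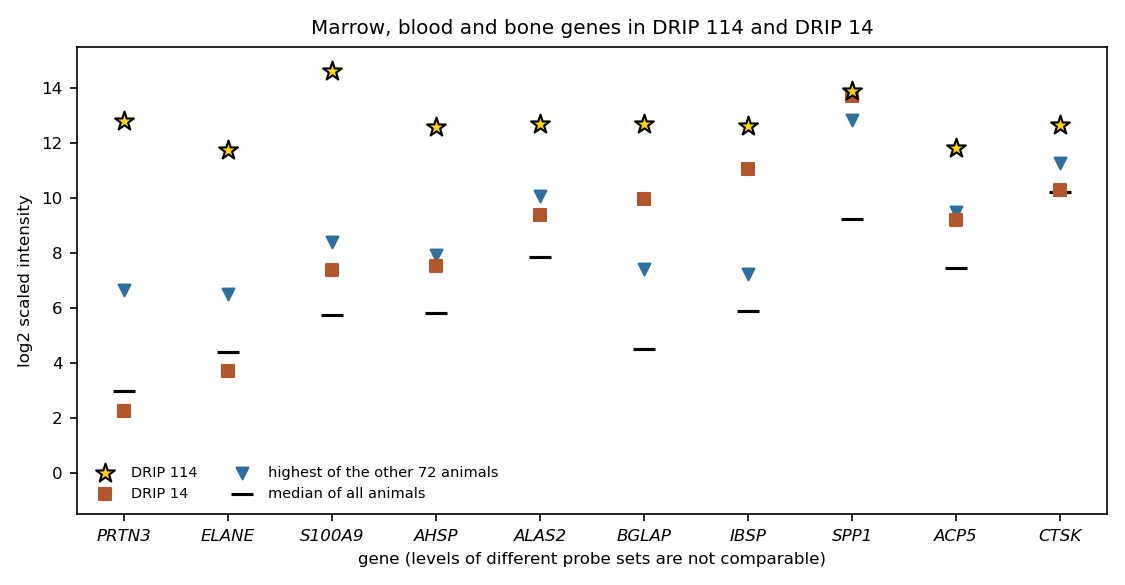
Levels of 10 genes of marrow cells, blood and bone in DRIP 114 (star) and DRIP 14 (square), with the highest of the 72 animals that remain (triangle) and the median of all animals (bar), as log2 scaled intensity on the vertical axis. DRIP 114 lay above the 72 animals for all 10 genes, and DRIP 14 lay above them for BGLAP, IBSP and SPP1.

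CTSK was the member in which DRIP 114 was most extreme. CTSK is a collagen-cleaving cysteine protease best known from osteoclasts and also made by fibroblasts. In DRIP 1-33 its level ran from 9.07 to 10.78 with a median of 9.78, and in DRIP 60-114 it ran from 8.84 to 12.67 with a median of 10.29. The value of 12.67 was that of DRIP 114, the next animal stood at 11.29, and DRIP 14, with its raised bone genes, stood at 10.28. The blocks overlapped over most of their range.

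CTSS, a cysteine protease of macrophages and other antigen-presenting cells that trims the invariant chain of MHC class II, varied widely between animals. Its brightest probe set ran from 8.56 to 11.83 with a median of 9.73 in DRIP 1-33, and from 8.59 to 12.12 with a median of 10.12 in DRIP 60-114. With the block means removed its SD was 0.71, above that of 92.5% of the kept probe sets, and the second probe set had an SD of 0.81, above 95.5%. The same few animals were high on all 3 CTSS probe sets, since DRIP 90, DRIP 111 and DRIP 114 held the 3 highest values of each. On the Sscrofa11.1 assembly CTSS and CTSK are neighbours on chromosome 4.

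CTSH and CTSZ, cysteine proteases that trim single residues or pairs of residues from protein ends, ran over a similar span. CTSH ran from 8.77 to 11.72 with a median of 9.97 in DRIP 1-33, and from 8.57 to 11.54 with a median of 9.79 in DRIP 60-114. CTSZ ran from 8.30 to 10.82 with a median of 9.43 in DRIP 1-33, and from 8.54 to 11.49 with a median of 9.58 in DRIP 60-114. Their SDs with block means removed were 0.63 and 0.60, above 88.8% and 86.6% of the kept probe sets, and the blocks overlapped almost fully.

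CTSB and CTSD, the cysteine and the aspartic protease found in lysosomes of most cells, were steadier. CTSB ran from 12.76 to 14.57 with a median of 13.27 in DRIP 1-33, and from 12.74 to 14.30 with a median of 13.13 in DRIP 60-114. CTSD ran from 10.60 to 13.03 with a median of 11.44 in DRIP 1-33, and from 10.38 to 12.29 with a median of 11.05 in DRIP 60-114. Their SDs with block means removed were 0.34 and 0.42, above 36.6% and 58.0% of the kept probe sets, whose median SD was 0.39. The highest value of both genes belonged to DRIP 23.

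CTSC is a dipeptidyl peptidase that activates the granule serine proteases of neutrophils and cytotoxic lymphocytes. Its brightest probe set ran from 10.48 to 12.04 in DRIP 1-33 and from 9.95 to 11.48 in DRIP 60-114, and its SD with block means removed, 0.36, lay above 41.8% of the kept probe sets. The other 3, which share a design number on the array, had SDs of 0.71, 0.57 and 0.65, above 92.8%, 84.1% and 90.0%. The dimmest of them ran from 6.51 to 9.33 in DRIP 1-33 and from 7.80 to 10.44 in DRIP 60-114. CTSC did not stand out in DRIP 114 on any of its probe sets, although PRTN3 and ELANE did.

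**Figure D2:**
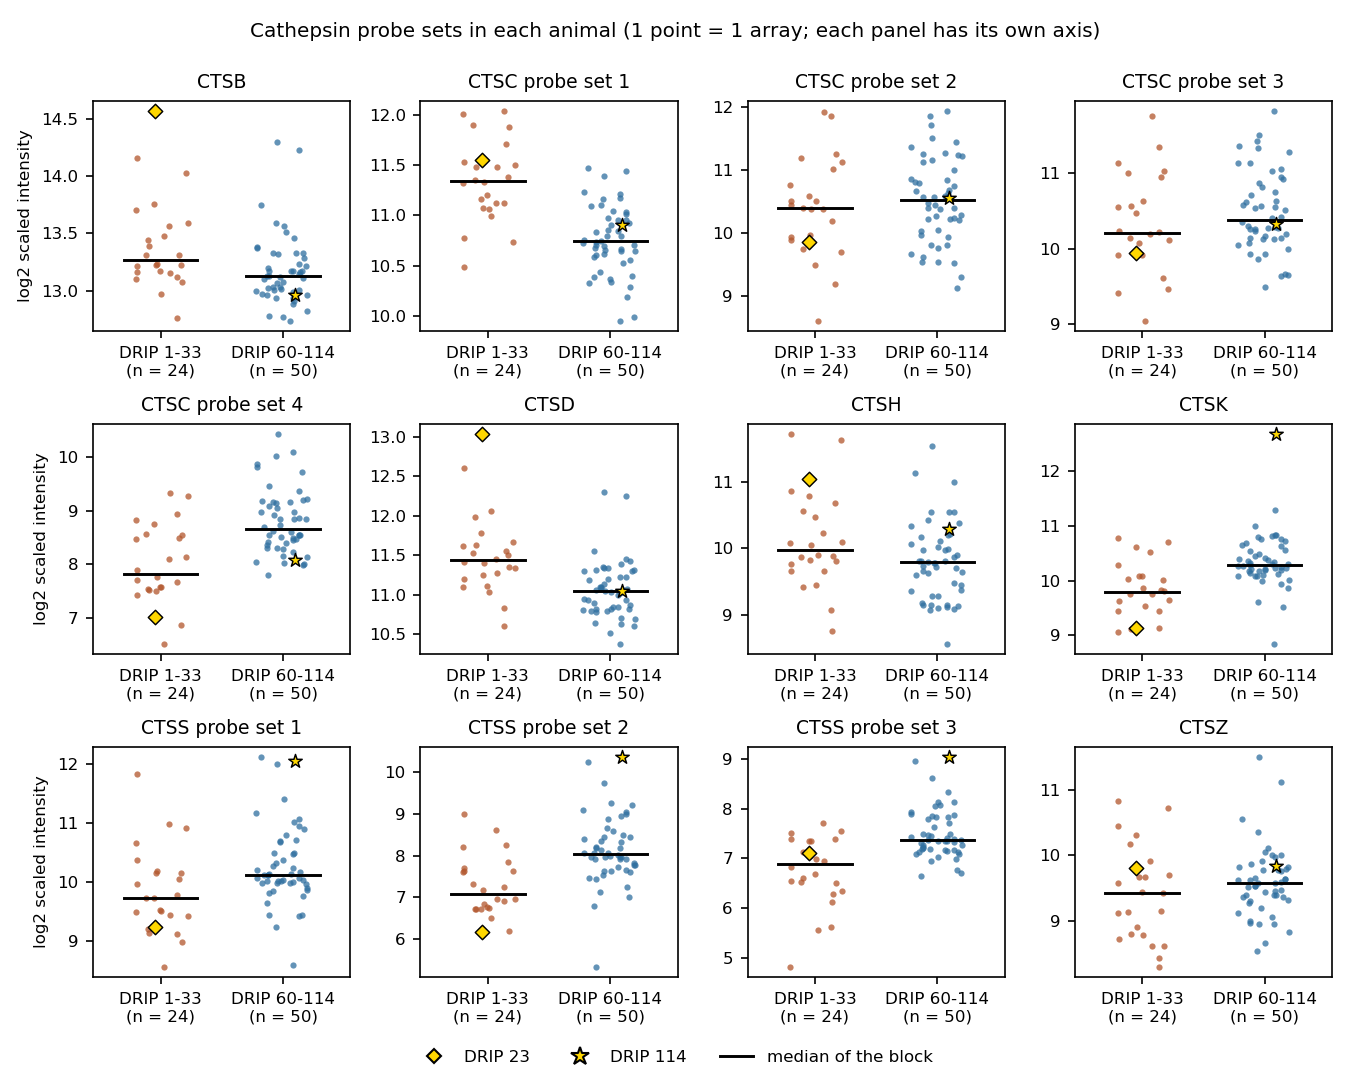
Level of each cathepsin probe set in each animal, as log2 scaled intensity on a vertical axis of its own, with DRIP 1-33 on the left and DRIP 60-114 on the right of each panel, a bar at the block median, DRIP 23 (diamond) and DRIP 114 (star) marked, and the probe sets of a gene numbered from the brightest. DRIP 114 is the highest animal for CTSK at 12.67, and DRIP 23 is the highest for CTSB at 14.57 and CTSD at 13.03.

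Between the blocks, member probe sets differed in both directions, at shares close to those of all kept probe sets. In a limma fit over the 12000 kept probe sets with Benjamini-Hochberg adjustment, 3 of 12 member probe sets were higher in DRIP 1-33 than in DRIP 60-114, where 24.8% of all kept probe sets were, and 5 of 12 were lower, where 36.6% of all were. CTSD was higher by 0.45 ± 0.10 (SE; adjusted p = 0.000135), CTSB by 0.23 ± 0.09 (adjusted p = 0.0181) and the brightest CTSC probe set by 0.58 ± 0.09 (adjusted p = 4.27e-08). CTSK fell by 0.56 ± 0.13 (adjusted p = 0.000104), the 3 CTSS probe sets fell by 0.45, 0.88 and 0.76, and the dimmest CTSC probe set fell by 0.79 ± 0.16 (adjusted p = 1.48e-05). CTSC thus went in opposite directions on a pair of its own probe sets, and no direction can be given for the gene. CTSS probe sets 2 and 3, numbered from the brightest, had medians of 7.08 and 6.89 in DRIP 1-33. Both lay under 7.12, the lowest median over all animals among the kept probe sets. In DRIP 60-114 their medians were 8.04 and 7.36. That they were kept thus rested on their levels in DRIP 60-114, and both are among the 5 lower members. CTSH had a difference of 0.32 ± 0.15 (adjusted p = 0.0625) and CTSZ of -0.17 ± 0.15 (adjusted p = 0.311). The median difference was -0.17 over the members and -0.07 over all kept probe sets. Array level differed with the block, and its part cannot be told apart from that of the block. Single directions turned with the scaling. With the arrays as deposited, 0 members were higher and 9 were lower, where 249 and 10047 of all 12000 kept probe sets were. CTSB then stood at -0.36, CTSD at -0.14 and the brightest CTSC probe set at -0.0019. With the array level as a covariate, the brightest CTSS probe set turned to 0.51 (adjusted p = 0.0411), CTSH (0.55) and the brightest CTSC probe set (0.57) were also higher, and the dimmest CTSC probe set alone was lower. CTSK then stood at -0.01 (adjusted p = 0.97), CTSB at 0.09 and CTSD at 0.12, none of the 3 past the test. Without DRIP 23, CTSB no longer passed the test (0.18, adjusted p = 0.051). All further relations were therefore taken within the blocks.

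The leukocyte score summed up genes that mark white blood cells. Of 77 leukocyte genes listed, 20 had a kept probe set of their own, and their mean log2 level ran from 7.63 to 9.36 in DRIP 1-33 and from 7.70 to 10.08 in DRIP 60-114. None of these probe sets was at the floor in any animal. Of the 20 genes, 12 belonged to the macrophage part of the list (CD14, CD163, C1QA and others) and 1, PTPRCAP, to the lymphocyte part, so the score was mainly one of macrophage genes. DRIP 114 had the highest score of all animals at 3.44 SD and DRIP 111 the second at 2.39 SD. The matrix score was built from 44 of 78 genes of collagens, proteoglycans and other matrix proteins, and its mean log2 level ran from 9.07 to 10.65 in DRIP 1-33 and from 9.503 to 10.52 in DRIP 60-114. The scores rose together, with Pearson's r = 0.712 in DRIP 1-33 and r = 0.437 in DRIP 60-114 (permutation p = 0.00015 and 0.0012), and 0.598 and 0.390 without the 2 animals farthest out. Spearman's rho was 0.631 and 0.407 (permutation p = 0.0013 and 0.0037).

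With the leukocyte score, 8 of the 12 cathepsin probe sets rose and 0 fell, where 12.2% of all kept probe sets rose and 9.72% fell. All measured genes of the set but CTSC were among the 8. CTSS rose by 0.52 ± 0.06, 0.56 ± 0.07 and 0.39 ± 0.05 log2 per SD of the score on its 3 probe sets (SE, 74 animals; adjusted p = 6.75e-12, 1.27e-09 and 1.03e-08), of which the first 2 values were the highest of the 12. CTSH rose by 0.47 ± 0.05 (adjusted p = 1.39e-11) and CTSZ by 0.41 ± 0.05 (adjusted p = 2.68e-09). CTSK rose by 0.27 ± 0.05 (adjusted p = 7.91e-05), CTSB by 0.22 ± 0.03 (adjusted p = 4.68e-07) and CTSD by 0.18 ± 0.04 (adjusted p = 0.00174). The 4 CTSC probe sets had slopes of -0.01, -0.11, -0.13 and -0.14, with adjusted p between 0.143 and 0.909, and 1 of them had an unadjusted p under 0.05. The median slope of the 12 was 0.24, against -0.0025 over all kept probe sets.

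With the matrix score, 6 of 12 rose, where 18.7% of all kept probe sets rose, and 0 fell, where 13.7% did. CTSK had the steepest slope of the set, 0.40 ± 0.04 (adjusted p = 2.2e-13). CTSH rose by 0.37 ± 0.06 (adjusted p = 6.8e-07), CTSZ by 0.31 ± 0.06 (adjusted p = 3.03e-05), the brightest and the dimmest CTSS probe sets both by 0.26, and CTSB by 0.13 ± 0.04 (adjusted p = 0.00534). The slope of CTSD was 0.10 ± 0.05 (adjusted p = 0.101), and the CTSC slopes lay between -0.08 and -0.02. The median slope was 0.15 over the members and -9.1e-05 over all kept probe sets.

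Since the scores rose together, each was also fitted with the other held, and the cathepsins then parted. On the leukocyte score with the matrix score held, 7 of 12 probe sets rose, where 3.77% of all kept probe sets rose, and 0 fell, where 2.80% did. CTSB (0.20), CTSD (0.18), CTSH (0.37), CTSZ (0.34) and the 3 CTSS probe sets (0.54, 0.65 and 0.35) were these 7, while CTSK had a slope of 0.07 ± 0.05 (adjusted p = 0.416). On the matrix score with the leukocyte score held, 2 of 12 rose, where 11.4% of all did, and 0 fell, where 5.60% did. These 2 were CTSK, at 0.36 ± 0.05 (adjusted p = 4.14e-09), and CTSH, at 0.17 ± 0.06 (adjusted p = 0.024). The 3 CTSS probe sets then had slopes of -0.03, -0.18 and 0.07, none past the test. Among the falling slopes, 1 member had an unadjusted p under 0.05 in limma on the leukocyte score with the matrix score held, and 2 on the matrix score with the leukocyte score held, while 0 had one on the matrix score alone. CTSK thus followed the matrix genes beyond the leukocyte genes, and CTSS the leukocyte genes beyond the matrix genes. That CTSK and CTSS differ from each other in these slopes was not tested. The genes of the matrix list were not alike in this. Of its leading genes, block means removed, r with CTSK was 0.20 for TIMP1, 0.52 for TNC and 0.72 for VCAN. TIMP1 had r = 0.76 with CTSB and 0.66 with CTSD.

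**Figure D3:**
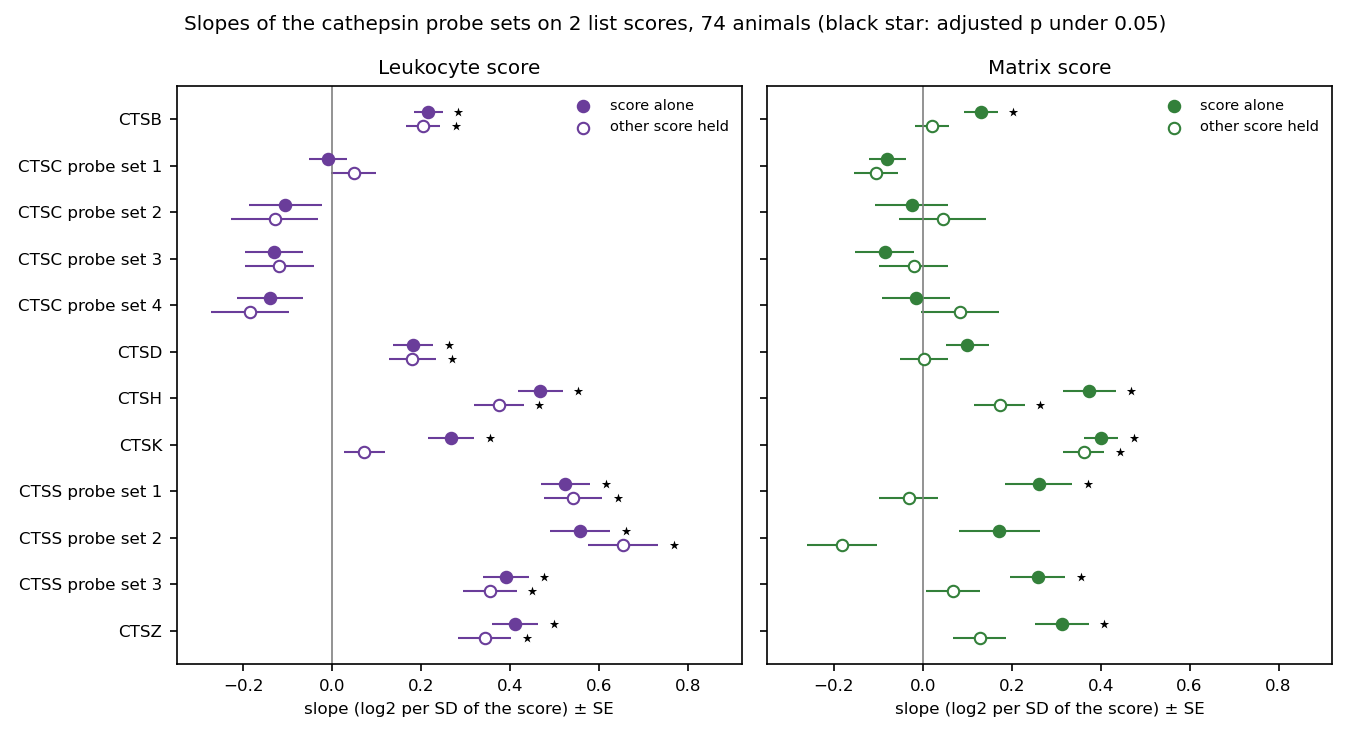
Slopes of the 12 cathepsin probe sets on the leukocyte score (left) and the matrix score (right) over 74 animals, in log2 per SD of the score with SE bars, for the score alone (filled) and with the other score held (open). A black star marks an adjusted p under 0.05. CTSK keeps a slope of 0.36 on the matrix score and 0.07 on the leukocyte score when the other score is held, and the brightest CTSS probe set has -0.03 and 0.54.

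Leaving out DRIP 114 changed these calls little over the 74 animals. CTSK then rose by 0.19 ± 0.05 on the leukocyte score (adjusted p = 0.00664), had a slope of -0.01 ± 0.04 with the matrix score held (adjusted p = 0.907), and rose by 0.36 ± 0.03 on the matrix score alone (adjusted p = 3.4e-14). Counts of 8 and 6 members on the leukocyte and the matrix score were the same without DRIP 114, without DRIP 23 and without DRIP 26. Without DRIP 23, CTSD no longer passed on the leukocyte score with the matrix score held (0.14, adjusted p = 0.102), and it also no longer passed without DRIP 26 (0.16, adjusted p = 0.0712) or without the 2 animals farthest out (0.17, adjusted p = 0.101). Without the 2 animals farthest out on the matrix score, CTSB no longer passed on that score (0.10, adjusted p = 0.0626), and CTSH no longer passed with the leukocyte score held (0.14, adjusted p = 0.117).

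Within the blocks, the leukocyte score gave 6 rising members in DRIP 1-33, where 9.52% of all kept probe sets rose, and 7 in DRIP 60-114, where 4.97% did. In DRIP 1-33, CTSH (0.62 ± 0.07), CTSZ (0.58 ± 0.08), CTSD (0.38 ± 0.07), CTSB (0.31 ± 0.06) and the brightest and dimmest CTSS probe sets (0.46 and 0.38) rose. Without the 2 animals farthest out, 3 were left in DRIP 1-33, CTSB, CTSH and CTSZ. Of all 12000 kept probe sets 191 then rose, against 1142 with all animals of the block. Without DRIP 26 alone 4 members were left, the same 3 and CTSD. The matching count over all kept probe sets is not given, so this drop is not read as particular to the members. The third-brightest CTSC probe set fell by 0.34 ± 0.11 in DRIP 1-33 (adjusted p = 0.0345), where 7.46% of all kept probe sets fell, and no longer passed without DRIP 26 (-0.33, adjusted p = 0.091) or without DRIP 23 (-0.36, adjusted p = 0.0514), where the brightest CTSC probe set fell in its place (-0.23, adjusted p = 0.0483). In DRIP 60-114, 0 members fell, where 2.62% did. In DRIP 60-114, all 3 CTSS probe sets (0.56, 0.66 and 0.40), CTSH (0.39 ± 0.06), CTSZ (0.33 ± 0.06), CTSB (0.17 ± 0.04) and CTSK (0.28 ± 0.06; adjusted p = 0.00257) rose, and CTSD had a slope of 0.08 ± 0.05 (adjusted p = 0.345). CTSK in DRIP 1-33 had a slope of 0.24 ± 0.09 (adjusted p = 0.0708), and without DRIP 23 it rose by 0.32 ± 0.09 (adjusted p = 0.0181). The call of CTSK in DRIP 60-114 rested on 1 animal, since without DRIP 114 its slope was 0.15 ± 0.06 (adjusted p = 0.191).

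The matrix score gave 7 rising members in DRIP 1-33, where 11.7% of all kept probe sets rose, and 2 in DRIP 60-114, where 8.79% did. Without the 2 animals farthest out, 4 were left in DRIP 1-33, CTSH, CTSK, CTSZ and the dimmest CTSS probe set, and 1, CTSK, in DRIP 60-114. Of all 12000 kept probe sets 641 and 765 then rose, against 1409 and 1055 with all animals of the block. Without DRIP 26 the count of members in DRIP 1-33 was 5, and CTSD was among those lost (0.21, adjusted p = 0.0711). The matching count over all kept probe sets is not given here either, so this drop is not read as particular to the members. None fell in either block, where 5.54% and 3.76% of all kept probe sets fell. CTSK rose in both, by 0.36 ± 0.06 in DRIP 1-33 and by 0.43 ± 0.05 in DRIP 60-114 (adjusted p = 7.48e-05 and 8.79e-08), and in DRIP 60-114 by 0.36 ± 0.04 without DRIP 114 (adjusted p = 5.36e-08). CTSH rose by 0.53 ± 0.07 in DRIP 1-33 and by 0.25 ± 0.08 in DRIP 60-114, where it no longer passed without DRIP 114 (0.25, adjusted p = 0.061). CTSZ had slopes of 0.52 ± 0.07 in DRIP 1-33 and 0.15 ± 0.08 in DRIP 60-114, CTSB of 0.23 ± 0.06 and 0.06 ± 0.05, and CTSD of 0.25 ± 0.08 and -0.02 ± 0.06. The difference between the blocks itself was tested as an interaction in limma. On the leukocyte score 0 of 12 members passed after adjustment, where 0.267% of all kept probe sets did, and 8 had an unadjusted p under 0.05, 4 with the higher slope in DRIP 1-33 and 4 with the lower. On the matrix score 0 of 12 passed, where 0.0250% of all did, and 5 had an unadjusted p under 0.05, all with the higher slope in DRIP 1-33.

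As correlations across animals, the relation of CTSK with the matrix score was tight in both blocks. Pearson's r was 0.816 in DRIP 1-33 and 0.757 in DRIP 60-114, and 0.804 and 0.777 without the 2 animals farthest out on the score. Spearman's rho was 0.824 and 0.799, and the permutation p of 1e-05 was the smallest that 100000 resamples can give, for an adjusted p of 4.8e-05 over the 48 relations of probe sets with scores. CTSK and the leukocyte score had r = 0.476 in DRIP 1-33 and 0.534 in DRIP 60-114 (adjusted permutation p = 0.033 and 0.00084; rho = 0.384 and 0.342, adjusted permutation p = 0.11 and 0.031), and 0.279 and 0.327 without the 2 animals farthest out. For the brightest CTSS probe set and the leukocyte score, r was 0.625 in DRIP 1-33 and 0.805 in DRIP 60-114 (adjusted permutation p = 0.0025 and 4.8e-05; rho = 0.577 and 0.705, adjusted permutation p = 0.0091 and 6.9e-05), and 0.458 and 0.724 without the 2 farthest animals. For CTSH it was 0.874 in DRIP 1-33 and 0.661 in DRIP 60-114, with 0.807 and 0.635 without the 2 farthest (adjusted permutation p = 4.8e-05 for both; rho = 0.784 and 0.614, adjusted permutation p = 9.6e-05 and 6.9e-05).

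**Figure D4:**
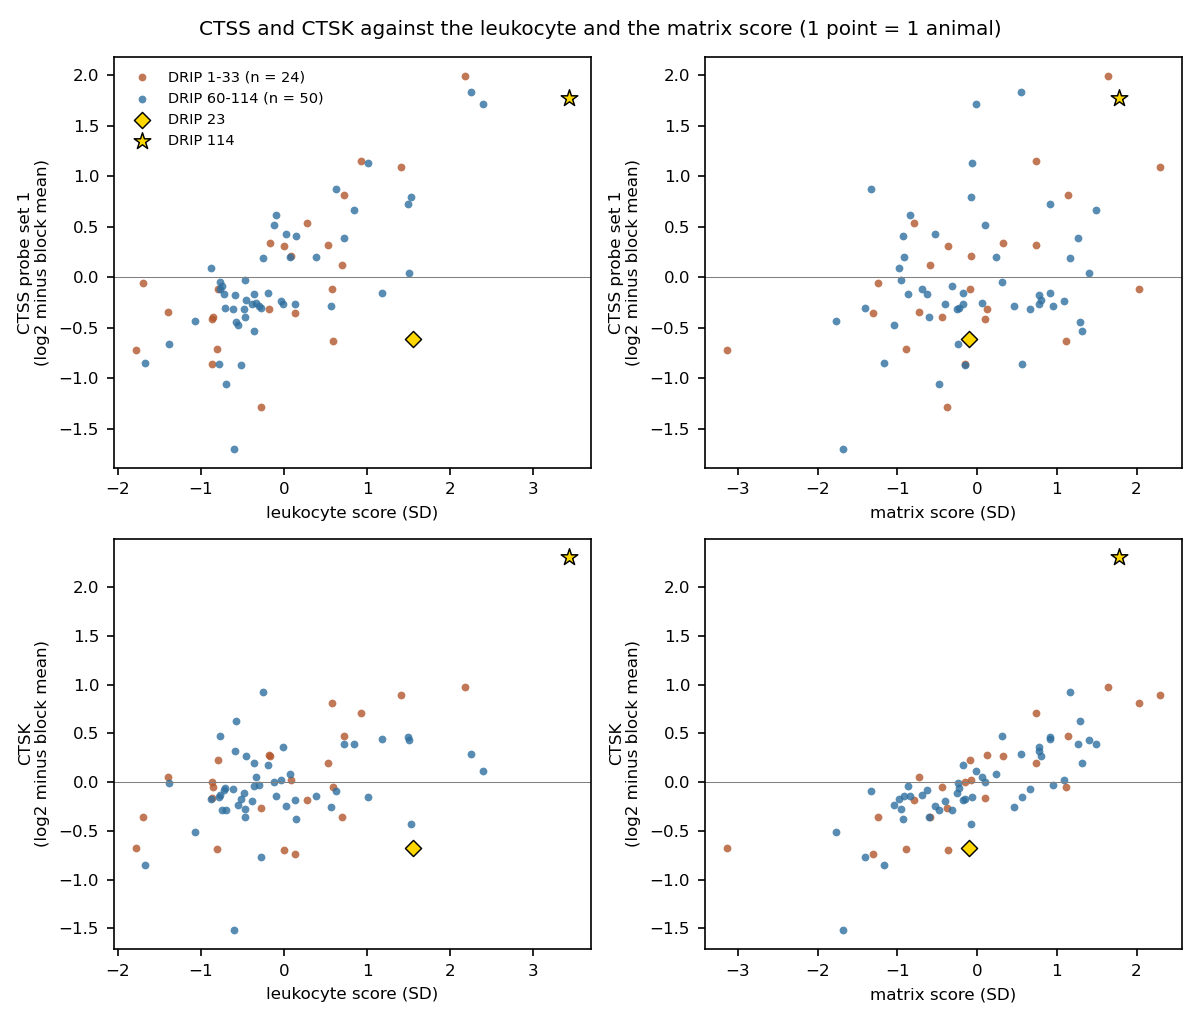
Levels of the brightest CTSS probe set (top) and of CTSK (bottom), as log2 minus the block mean, against the leukocyte score (left) and the matrix score (right) in SD, with 1 point per animal coloured by block. CTSK follows the matrix score along a line in both blocks, with DRIP 114 (star) above it, and CTSS follows the leukocyte score, with DRIP 23 (diamond) below.

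Among themselves, the members fell into a small number of patterns. Of the 66 pairs of probe sets, 23 correlated positively and 5 negatively in DRIP 1-33 after adjustment over the 132 relations of both blocks, and 28 positively and 3 negatively in DRIP 60-114. The 66 include pairs of probe sets of the same gene, CTSC or CTSS, and most of these were among the positive pairs in both blocks. The share of passing pairs among other kept probe sets was not computed. All 8 negative pairs held a CTSC probe set. CTSH and CTSZ went together, with r = 0.896 in DRIP 1-33 and 0.737 in DRIP 60-114, and 0.840 and 0.627 without the 2 animals farthest out on CTSH (adjusted permutation p = 7.3e-05 for both; rho = 0.895 and 0.619, adjusted permutation p = 0.0001 for both). CTSB and CTSZ had r = 0.756 and 0.757, and 0.843 and 0.546 without the 2 farthest (adjusted permutation p = 7.3e-05 for both; rho = 0.857 and 0.511, adjusted permutation p = 0.0001 and 0.0019). CTSB and CTSD had r = 0.876 in DRIP 1-33 and 0.511 in DRIP 60-114 (adjusted permutation p = 7.3e-05 and 0.0029; rho = 0.848 and 0.126, adjusted permutation p = 0.0001 and 0.51). Without the 2 animals farthest out on CTSB, r was 0.713 in DRIP 1-33 and 0.034 in DRIP 60-114, so the relation in DRIP 60-114 rested on those 2 animals.

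For CTSK with CTSB and CTSD no relation passed the adjustment in either block. Its r with CTSB was 0.379 in DRIP 1-33 and 0.032 in DRIP 60-114 (adjusted permutation p = 0.13 and 0.86; rho = 0.425 and 0.101, adjusted permutation p = 0.087 and 0.59), and 0.648 and 0.108 without the 2 animals farthest out on CTSB. With CTSD it was 0.236 in DRIP 1-33 and -0.205 in DRIP 60-114 (adjusted permutation p = 0.36 and 0.22; rho = 0.341 and -0.301, adjusted permutation p = 0.19 and 0.079), and 0.403 and -0.226 without the 2 animals farthest out on CTSD. With the brightest CTSS probe set the r of CTSK was 0.658 in DRIP 1-33 and 0.513 in DRIP 60-114 (adjusted permutation p = 0.0015 and 0.0013; rho = 0.568 and 0.340, adjusted permutation p = 0.015 and 0.045), and 0.481 and 0.235 without the 2 farthest animals. Without DRIP 114 alone it was 0.385 in DRIP 60-114.

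The 3 CTSC probe sets that share a design number went together, with r between 0.752 and 0.904 in DRIP 1-33 and between 0.843 and 0.908 in DRIP 60-114. The brightest CTSC probe set followed them less closely, with r between 0.469 and 0.731 in DRIP 1-33 and between 0.320 and 0.476 in DRIP 60-114. The difference between these ranges was not tested. In DRIP 1-33, 3 of the 4 CTSC probe sets correlated negatively with CTSZ, with r = -0.571, -0.465 and -0.580 from the brightest on (adjusted permutation p = 0.011, 0.048 and 0.0089; rho = -0.457, -0.477 and -0.591, adjusted permutation p = 0.062, 0.054 and 0.01), and -0.389, -0.446 and -0.580 without the 2 farthest animals. The dimmest CTSC probe set had r = -0.160 with CTSZ (adjusted permutation p = 0.54), and in DRIP 60-114 the 4 values lay between -0.186 and 0.245, none past the adjustment. The 3 CTSS probe sets had r between 0.249 and 0.855 with each other in DRIP 1-33 and between 0.674 and 0.827 in DRIP 60-114.

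**Figure D5:**
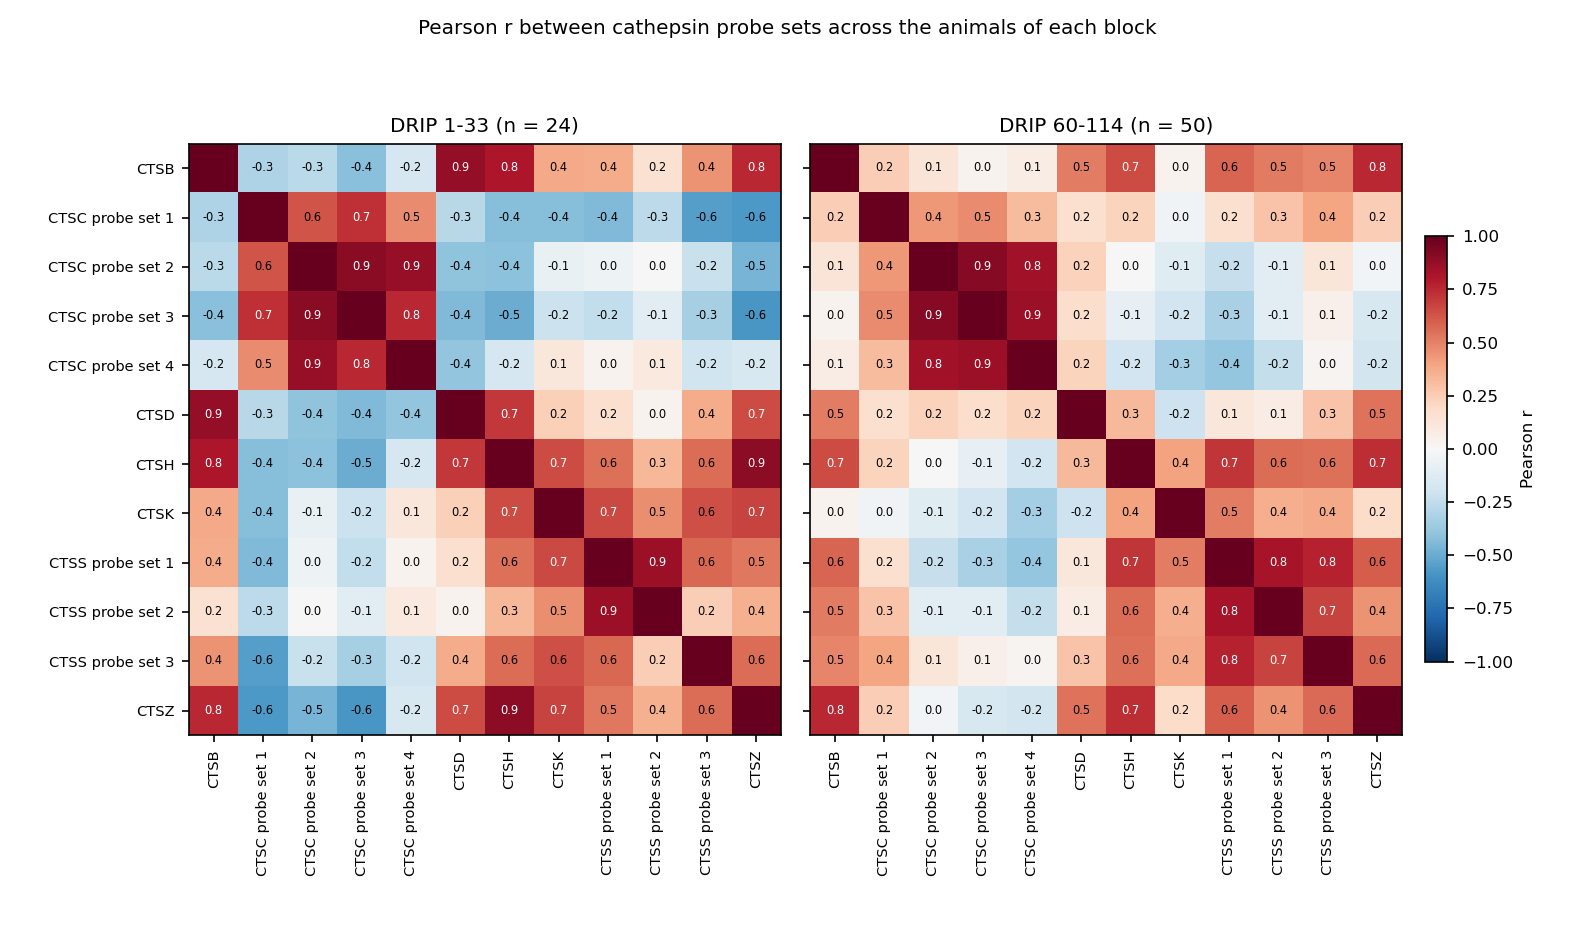
Pearson's r between the 12 cathepsin probe sets across the animals of DRIP 1-33 (left, n = 24) and DRIP 60-114 (right, n = 50), red for positive and blue for negative. CTSB, CTSD, CTSH and CTSZ form a red block on the left, the 3 CTSC probe sets that share a design number form one on both sides, and CTSK is close to 0 with CTSB (0.032) on the right.

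The genes most like each cathepsin over the 74 animals, block means removed and measured from its brightest probe set, differed between members. They are a description, and DRIP 114 and DRIP 23 are among the points. For CTSK they were MYL6, a non-muscle myosin light chain (r = 0.79), ANXA1, an annexin (0.79), and CALD1, caldesmon of smooth muscle and other non-muscle cells (0.76), and the lowest was NDUFB11, a subunit of respiratory complex I (-0.75). For CTSS they were FAM49B (0.82), GPNMB, a glycoprotein of macrophages and osteoclasts (0.81), and SPP1, osteopontin (0.78). SPP1 was highest in DRIP 114 and DRIP 14, at 13.88 and 13.71, and its r was not taken without them. For CTSH they were SDC2, a cell surface proteoglycan (0.81), CTSZ (0.81) and IFI30, the thiol reductase of class II antigen processing (0.80), and for CTSZ they were CTSH (0.81), IFI30 (0.80) and S100A11 (0.78). For CTSB they were LOC100524254 (0.83), LGALS3, a galectin of macrophages (0.82), and CLIC1 (0.80). For CTSD they were CAPNS1, the small subunit of the calpains (0.81), RNH1, an inhibitor of ribonucleases (0.77), and LOC100524254 (0.76). The brightest CTSC probe set had no close partner, with POPDC3 the highest at r = 0.39. The other CTSC probe sets were not searched in this way.

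The other lysosomal enzymes gave the pathway around the members. Of 51 listed, 25 had kept probe sets, 30 in all, and of these 17 rose and 1 fell with the leukocyte score, and 20 rose and 0 fell with the matrix score. LIPA, the lysosomal acid lipase, rose by 0.40 on the leukocyte score, LGMN, the asparaginyl endopeptidase that trims cathepsin precursors, by 0.17, and DNASE2, the lysosomal deoxyribonuclease, by 0.33. These 3 genes had mean sizes of r of 0.46, 0.45 and 0.42 with the 12 member probe sets. On the score of these enzymes, 8 of 12 members rose, where 23.0% of all kept probe sets rose, and 0 fell, where 21.2% did. The 8 were the same as on the leukocyte score, from 0.23 for CTSB to 0.43 for CTSZ. CTSV, which RefSeq lists for the pig with CTSL among its older names and which is not a member, had slopes of -0.03 on the leukocyte score and -0.01 on the matrix score (adjusted p = 0.615 and 0.844).

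The lysosomal membrane genes split the members in another way. With their score, built from 12 genes, 5 members rose, where 24.6% of all kept probe sets did, namely CTSB (0.23), CTSD (0.32), CTSH (0.32), CTSZ (0.35) and the dimmest CTSS probe set (0.20). CTSK had a slope of 0.04 (adjusted p = 0.636). NPC2, which carries cholesterol out of the lysosome, had r = 0.71 with CTSB, 0.75 with CTSH and 0.29 with CTSK, and LAMP1, a structural membrane protein, had r = 0.66 with CTSB, 0.69 with CTSD and 0.12 with CTSK, block means removed. GM2A, also a leading gene of this list, went another way, with r = 0.52 with CTSB, 0.32 with CTSD, 0.69 with CTSH and 0.54 with CTSK. With the score of 22 genes for lysosomal sorting and regulation, CTSD (0.27 ± 0.04) and CTSB (0.10 ± 0.04) rose, where 22.6% of all did, and CTSK fell by 0.15 ± 0.06, where 23.0% did. In both directions the share of the 12 members that passed was below that of all kept probe sets. On a score of 22 autophagy genes 0 members passed in limma, where 10.4% of all kept probe sets did, and 2 had an unadjusted p under 0.05.

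The genes of cathepsin inhibitors varied with part of the members. With the score of 5 inhibitor genes, 7 members rose, where 20.9% of all did, from 0.21 for the brightest CTSS probe set to 0.35 for CTSZ. CTSD, the aspartic protease, was among them at 0.25. No CTSC probe set passed, with slopes between -0.04 and 0.02. CSTB, the cystatin of the cytosol, rose by 0.24 on the leukocyte score (adjusted p = 7.49e-07) and by 0.20 on the matrix score (adjusted p = 0.000124). CST3, the secreted cystatin C, rose by 0.27, 0.24 and 0.15 on the matrix score on its 3 probe sets, and kept this with the leukocyte score held (adjusted p = 1.37e-08, 2.57e-07 and 0.00336).

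Genes of class II antigen presentation gave a score from 8 of 11 listed. A total of 7 members rose with it, where 10.8% of all did, the 3 CTSS probe sets by 0.37, 0.42 and 0.27, CTSH by 0.34, CTSZ by 0.31, CTSB by 0.19 and CTSD by 0.14. CTSK had a slope of 0.14, the same as CTSD to 2 decimals, and did not pass (adjusted p = 0.0712). The genes IFI30, CD74 (the invariant chain cut by CTSS) and SLA-DMB led the list, with r between 0.46 and 0.80 with CTSH.

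Markers of other cells of the muscle gave a last set of relations. With the score of 6 fibroblast genes, 7 members rose, where 19.8% of all did, with CTSK at 0.32 ± 0.05 (adjusted p = 1.09e-07) among the highest. On a score of 14 adipocyte genes 1 member rose, where 8.25% of all did, a share close to that of the members. This member was CTSK at 0.23 ± 0.05 (adjusted p = 0.00191). The leading genes of the adipocyte list went opposite ways with CTSK. Block means removed, r with CTSK was -0.34 for GPD1, -0.32 for AGPAT2 and 0.60 for PPARG. On a score of 10 fast fibre genes 5 members fell, where 23.1% of all did, namely CTSH by 0.23, CTSK by 0.29 and the 3 CTSS probe sets by 0.47, 0.40 and 0.19. The same 5 fell with the score of 7 markers of skeletal muscle, where 13.2% of all fell. In limma 0 members passed on the scores of endothelium, smooth muscle and pericyte, slow fibre or erythroid genes, where 25.9%, 10.7%, 3.76% and 7.02% of all kept probe sets passed in either direction, and 0, 3, 1 and 4 members had an unadjusted p under 0.05. The part of each cell type in these relations was not tested.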

How the data were processed

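Total RNA of 74 muscle samples was hybridised to Affymetrix Porcine Genome Arrays. The values are linear probe set intensities as deposited by the authors, 24123 per array, handled with GCOS 1.1.1 per the submitters' processing notes. The study names MAS5 for present calls, PLIER for expression levels and global scaling in GCOS, and which of these the deposited values hold was not settled. No present calls were used. Scaling brought the trimmed mean of every array, with 2% left out at each end, to 500, values under 1 were set to 1, and log2 was taken. The 124 control probe sets were left out and the 50% with the highest median (12000) were kept. The fits were tested on simulated data. Annotation named 1 gene for 10069 probe sets, several for 198 and none for 13732, with symbols updated through Entrez IDs. A list score is the mean over genes of within-block z scores, centred in each block and scaled to an SD of 1. limma 3.58.1 (R 4.3.3) was fitted over all kept probe sets with block as a term, two-sided, with Benjamini-Hochberg adjustment and a threshold of 0.05. Correlations used two-sided permutation tests with 100000 resamples (numpy 2.4.6) within each block. Beside the members, the text names up to 3 of the most alike genes of each member and leading genes of part of the lists. Other genes of the lists are given mainly as counts and scores. The members and lists were chosen with earlier results of these data known. The study's terms for family, sex, carcass weight and slaughter date were not in the labels and were not fitted. Precision is limited by the number of arrays, 1 per animal. No sequences of the members were used here.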

Additional observations from a re-analysis of the deposited data

How the results depend on the processing

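The limits lie in the array level, in the number of animals and in single animals. Of the single probe set results, 800 counted as unchanged under an alternative, 15 lost the call and 7 gained it. A further 6 changed sign where the main or the alternative result passed. The last 12, the median levels with the arrays as deposited, moved by over 1 SD. Sign changes where neither result passed were counted among the 800. Of the counts and medians, 268 stayed within their limits and 21 moved. With the arrays as deposited, the difference between the blocks counted 0 members higher and 9 lower, with 249 and 10047 of all 12000 kept probe sets against 2977 and 4388 after scaling. CTSB then stood at -0.36, the brightest CTSC probe set at -0.0019 and CTSD at -0.14, and the brightest CTSC probe set rose with the leukocyte score by 0.13 and with the lysosomal enzyme score by 0.14. In the same setting the matrix score in DRIP 60-114 gave 8 rising members, where 8724 of all 12000 kept probe sets rose. The median r of the members with the matrix score there was 0.504. The leukocyte score in DRIP 1-33 then gave 0 falling members, where 15 of all kept probe sets fell. With the array level as a covariate the blocks counted 1 member lower, where 4170 of all 12000 kept probe sets were. The brightest CTSS probe set stood at 0.51, and the matrix score in DRIP 60-114 gave 1 rising member, where 1335 of all rose. The falling CTSC probe set on the leukocyte score in DRIP 1-33 was also lost (0 members) with dim probe sets also tested, with the 3 prime to 5 prime control ratio as a covariate, without DRIP 26, without the 2 farthest animals and with the macrophage genes alone. Without the 2 farthest animals, the leukocyte score in DRIP 1-33 gave 3 rising members and the matrix score 4, the matrix score in DRIP 60-114 gave 1, and the matrix score with the leukocyte score held gave 1. Over all 12000 kept probe sets these counts were 191, 641, 765 and 1101. The matrix score in DRIP 60-114 also gave 1 with all probe sets, with interstitial genes alone and without DRIP 114, and 0 with basement membrane genes alone. Over all probe sets tested these counts were 1131 of 23999, then 854, 945 and 341 of 12000. Without DRIP 23, 1 CTSS probe set fell with the matrix score when the leukocyte score was held (-0.22, adjusted p = 0.0174). The cause of these changes was not tested. Leaving out DRIP 114, DRIP 23 and DRIP 26 was chosen after seeing the data. The lymphocyte genes alone were not run with the kept probe sets, since 1 gene was left. No paired analysis was possible because each animal has 1 array and all form 1 group.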
